A study of Oryctolagus cuniculus with 8 samples.

Results

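The genes described here encode ion channel subunits and aquaporins, the proteins that let ions and water cross cell membranes through a pore. They were taken by name alone: potassium channel genes (KCN), transient receptor potential channels of the TRPA, TRPC, TRPM and TRPV families, CLC chloride channels and exchangers (CLCN), chloride intracellular channel proteins (CLIC), voltage-gated calcium channel subunits (CACNA, CACNB, CACNG), voltage-gated sodium channel subunits (SCN), anoctamins (ANO) and aquaporins (AQP), each with a name that occurs once. AQP1 was set apart. This gave 131 of the 20922 gene entries.

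The side population (SP) consists of the cells of a tissue that export the DNA dye Hoechst and stay dim in flow cytometry, and the remaining cells are the non-side population (NSP). Here SP and NSP cells came from the limbal epithelium, the zone where cornea meets conjunctiva. The donors were New Zealand white rabbits, with 4 SP and 4 NSP libraries of total RNA sequenced on an Ion Proton. No genotype, treatment, time or age is given for either group, and nothing in the labels ties a library to its own animal. The p-values therefore weigh a group difference against the spread between these libraries, and that spread may be technical in part. Whether they extend to other animals is not known. The comparison asks how cells that exclude the dye differ in expression from cells that keep it.

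A cell's channels set its membrane potential, its volume and its calcium signals. Most channels are built from pore subunits and auxiliary subunits that change how the pore opens and how much of it reaches the membrane. In stratified epithelia such as that of the cornea, aquaporins carry water and glycerol, chloride and potassium channels support fluid transport, and TRP channels sense temperature, osmotic stress and irritants. Outside the epithelium, the limbus also holds vessels, immune cells, nerves and pigment cells, which use channel sets of their own.

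SP libraries held 15553295 to 18931836 exon reads and NSP libraries 20445565 to 23529101. Levels are given as CPM, read counts scaled to a common library total, and levels compared between genes as RPKM, which divides by exon length as well. Markers of corneal and limbal epithelium summed to 1087 to 8345 CPM in SP and 28720 to 51580 CPM in NSP libraries, and 12 of 12 were lower in SP. Markers of endothelium summed to 1950 to 17570 CPM in SP and 9.08 to 15.4 CPM in NSP libraries, with 10 of 10 tested higher and SELE without a read in NSP. T and NK cell markers (594 to 2233 CPM in SP, 3.05 to 7.34 CPM in NSP) were higher for 7 of 7 tested, with CD8B, GZMK and CXCR6 without a read in NSP. Melanocyte markers (2139 to 13380 CPM in SP, 149 to 306 CPM in NSP) were also higher for 7 of 7. Myeloid markers were higher for 7 of 9 tested (1184 to 2579 CPM in SP, 46.2 to 108 CPM in NSP). Stromal and mural markers were higher for 6 of 8 and lower for 1 (216 to 390 CPM in SP, 43.0 to 57.9 CPM in NSP). Schwann cell markers were higher for 4 of 7 and lower for 1 (258 to 1039 CPM in SP, 88.9 to 114 CPM in NSP). Most of that NSP sum was NGFR, at 77.8 to 109.5 CPM in NSP against 6.85 to 46.5 CPM in SP. COL3A1 and LUM had no read in NSP and DES none in SP. KERA had no read in NSP either, and in SP only library 2 carried it (0.16 CPM). These marker sums differed between the groups that every comparison below uses, and their part in the results was not tested. In sorted bulk samples, fewer cells of a type and less RNA per cell cannot be told apart.

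Of the 131 genes, 118 had at least 1 read and 62 passed the filter on low counts and were tested with limma-voom, which fits a weighted linear model to log2 CPM of all 10012 genes that passed. At an adjusted p of 0.05 over those genes, 13 members (21.0%) were higher in SP, beside 17.7% of all genes tested, and 17 (27.4%) were lower, beside 13% of all genes. The other 32 did not pass. In 12 members (19.4%) every SP library lay above every NSP library, beside 18.8% of all genes, and in 16 (25.8%) every SP library lay below, beside 14.0%. The shares on the higher side were thus near those of all genes, and those on the lower side were larger. The median log2 fold change of SP over NSP was -0.40 for the 62 members and 0.12 for all genes tested. Of the 30 calls, 19 (8 higher and 11 lower) held in all 8 fits that leave out 1 library. Spread within a group was wide: the median coefficient of variation of the tested members was 64.7% in SP and 40.8% in NSP, against 42.3% and 27.4% over all genes.

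**Figure D1:**
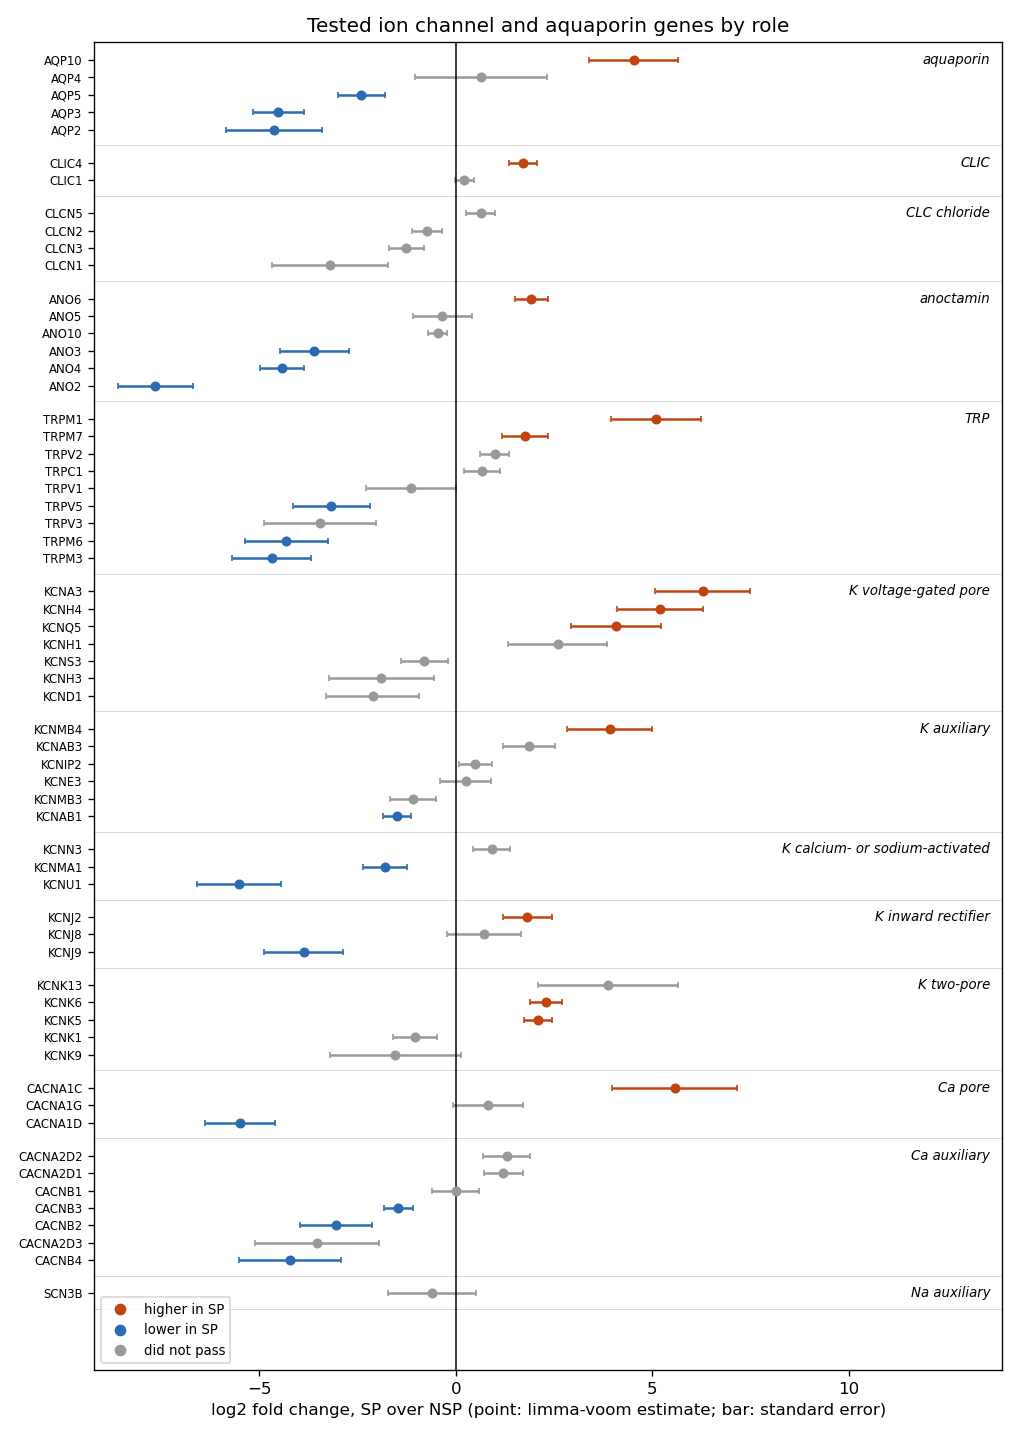
The log2 fold change of SP over NSP (x axis, limma-voom estimate with its standard error) of 61 of the 62 tested members, by role. Genes to the right of 0 were higher in SP. The 13 called higher are orange, the 17 called lower blue and 31 that did not pass grey; the farthest point to the left is ANO2 and the farthest to the right is KCNA3.

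The aquaporins among the members, which leave out AQP1, split between a pair that dominated NSP cells and a set of minor genes. AQP3, which carries water and glycerol and is the aquaporin of basal layers in many stratified epithelia, had 182, 80.4, 41.7 and 456 CPM in the SP libraries against 3861, 3634, 1519 and 3489 CPM in the NSP libraries. The groups lay far apart, and SP library 4 was the highest of its group. The log2 fold change was -4.52 ± 0.65 (SE; limma-voom adjusted p = 0.000781). AQP5, the water channel of corneal epithelium and lacrimal gland, had 460, 105, 84.4 and 198 CPM in SP against 2487, 782, 483 and 687 CPM in NSP libraries. The highest SP and the lowest NSP library were close (460 and 483 CPM) without overlapping. It was lower in SP by -2.41 ± 0.60 (adjusted p = 0.0120). AQP2, the vasopressin-regulated channel of the kidney collecting duct, stood at 0.54 CPM in SP library 1, without a read in the other 3 SP libraries, and at 1.04, 0.83, 1.10 and 5.12 CPM in NSP libraries. It was lower in SP (-4.62 ± 1.22, adjusted p = 0.0163), a call lost without SP library 2 or 3 (adjusted p up to 0.0594).

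AQP10, a water and glycerol channel known from the human intestine, was the aquaporin member called higher in SP, with AQP1 set apart. It had 3.04, 13.2, 24.1 and 14.3 CPM in SP against 1.44, 0.28, 0.20 and 0.43 CPM in NSP libraries, so each SP library lay above each NSP library. The log2 fold change was 4.53 ± 1.13 (limma-voom adjusted p = 0.0123). AQP4, the water channel of astrocytes, had 3.21, 14.7, 0 and 0.84 CPM in SP and 0.51 to 0.90 CPM in NSP libraries and did not pass (0.65 ± 1.68, adjusted p = 0.800). AQP7, a glycerol channel of fat tissue, was below the filter, with 0, 35, 18 and 115 reads in SP libraries against 0, 0, 0 and 8 in NSP libraries. Only single libraries carried AQP8 (16 reads, NSP library 1) and AQP9 (17 reads, NSP library 2), AQP11 had 12 reads in SP and 40 in NSP, and AQP6 had none in SP and 9 in NSP. In the RefSeq gene table AQP2, AQP5 and AQP6 follow one another with no coding gene between them, and AQP7 is next to AQP3, so each of these neighbourhoods joins an abundant gene with scarce ones.

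CLIC proteins are small proteins found both in soluble form and in membranes, and CLIC1 and CLIC4 had the highest mean RPKM of all members in SP, although the range of CLIC4 overlapped those of AQP5 and AQP3. CLIC4, which takes part in endothelial tube formation among other processes, had 624, 812, 1233 and 2014 CPM in SP libraries against 236, 375, 335 and 369 CPM in NSP libraries. Every SP library exceeded every NSP library, and SP library 4 stood highest. CLIC4 was higher in SP by 1.71 ± 0.35 (limma-voom adjusted p = 0.00472). CLIC1 had 888, 1343, 1429 and 1434 CPM in SP and 997, 849, 1401 and 1122 CPM in NSP libraries. Its groups overlapped and it did not pass (0.22 ± 0.25, adjusted p = 0.542). CLIC1 overlaps the coding gene MPIG6B in RefSeq. Overlaps here compare whole gene spans, introns included, and whether exons overlap was not examined. The strand used in counting is not given in the sources used here either. Whether reads of an overlapping gene entered a member's count is therefore not known. CLIC5 was below the filter, with 62 reads in SP, 57 of them in library 2, and 30 in NSP.

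Of the 4 CLC genes, 0 were called by limma-voom, 1 (CLCN3, lower in SP) had an unadjusted p under 0.05, and 0 were called by limma-trend or in the authors' deposited table. CLCN3 is an endosomal chloride-proton exchanger. It had 52.1, 57.3, 13.5 and 17.6 CPM in SP against 55.8, 76.0, 95.4 and 62.8 CPM in NSP libraries. SP library 2 lay inside the NSP range, library 1 just below it, and 3 and 4 far below. The log2 fold change of CLCN3 was -1.26 ± 0.45 (adjusted p = 0.0543). It passed the threshold, as lower in SP, with median-ratio or upper-quartile scaling and without SP library 1 or 2. The endosomal exchanger CLCN5, the plasma membrane channel CLCN2 and the muscle channel CLCN1 gave log2 fold changes of 0.63, -0.74 and -3.20 (adjusted p = 0.208, 0.170 and 0.124).

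Anoctamins comprise calcium-activated chloride channels and calcium-dependent lipid scramblases. All 6 were tested, and 3 were lower and 1 higher in SP. ANO2, a calcium-activated chloride channel of olfactory neurons and photoreceptors, had 0.11, 0, 0.38 and 0.49 CPM in SP against 43.6, 30.1, 29.1 and 27.8 CPM in NSP libraries. It was close to absent from each SP library, and NSP library 1 stood above the other NSP libraries, which were near each other. Its log2 fold change of -7.65 ± 0.95 was the most negative of the 62 (limma-voom adjusted p = 0.000399). ANO4, for which scramblase activity has been described, had 3.42, 5.995, 0.70 and 2.44 CPM in SP against 40.8, 67.3, 55.4 and 52.0 CPM in NSP libraries, a log2 fold change of -4.42 ± 0.56 (adjusted p = 0.000431). ANO3, a family member linked to human dystonia, had 3.97, 0.26, 0.81 and 0.49 CPM in SP against 11.6, 21.4, 6.59 and 6.52 CPM in NSP (-3.60 ± 0.88, adjusted p = 0.0113). It overlaps the mucin gene MUC15.

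ANO6, the scramblase that exposes phosphatidylserine on activated platelets, went the other way. It had 52.8, 55.2, 102 and 130 CPM in SP against 30.7, 21.3, 10.03 and 27.1 CPM in NSP libraries. The 4 SP libraries were above the 4 NSP libraries, and the log2 fold change was 1.92 ± 0.42 (limma-voom adjusted p = 0.00704). ANO10, an intracellular member, had 44.7 to 76.9 CPM in SP and 69.0 to 86.8 CPM in NSP libraries and did not pass (-0.46 ± 0.24, adjusted p = 0.170). ANO5, linked to muscle disease in humans, had 0.43 to 0.78 CPM in SP and 0.37 to 1.31 CPM in NSP libraries (-0.34, adjusted p = 0.766).

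**Figure D2:**
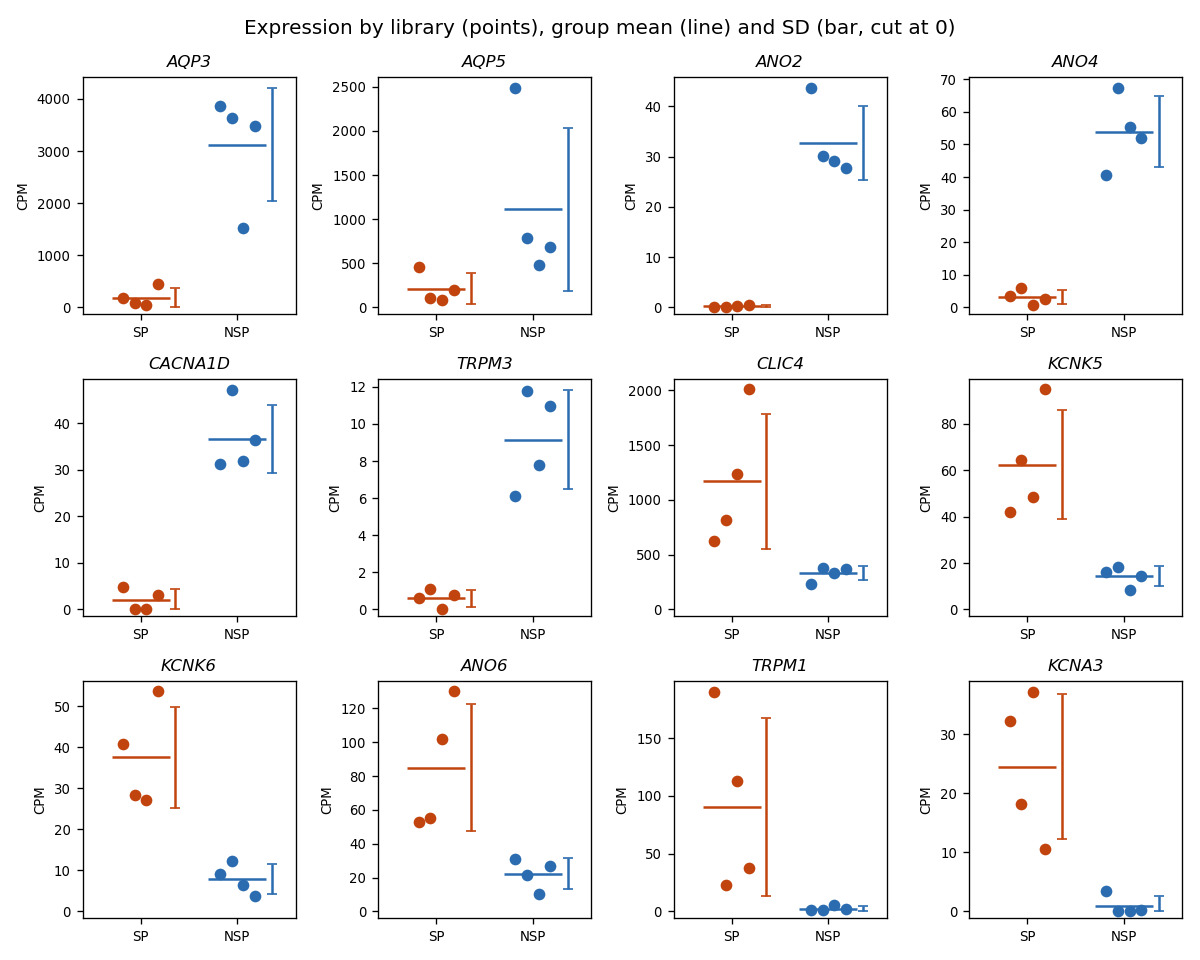
CPM (y axis, linear, each panel with its own scale) of 12 members in the 4 SP libraries (orange, left) and 4 NSP libraries (blue, right); points are libraries in column order, the line is the group mean and the bar its SD, with the lower end drawn no further than 0. The SP points lie below the NSP points for AQP3, AQP5, ANO2, ANO4, CACNA1D and TRPM3 and above them for CLIC4, KCNK5, KCNK6, ANO6, TRPM1 and KCNA3.

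Of 14 TRP genes 9 were tested, and 2 were higher and 3 lower in SP. TRPM1, a channel of melanocytes and of retinal ON bipolar cells, had 190, 22.7, 113 and 37.4 CPM in SP against 1.53, 0.88, 5.79 and 1.79 CPM in NSP libraries. SP libraries 1 and 3 were several times above 2 and 4, yet the lowest SP library exceeded the highest NSP library. TRPM1 was higher in SP by 5.09 ± 1.14 (limma-voom adjusted p = 0.00747). Summed melanocyte markers had the same order in SP, with 13380, 2139, 8270 and 2663 CPM in libraries 1 to 4. Summed Schwann cell and nerve markers had that order too, with 1039, 258, 600 and 408 CPM. The part of either cell type in the TRPM1 difference was not tested. TRPM7, a magnesium-permeable channel fused to a kinase, had 59.0, 27.9, 44.0 and 8.49 CPM in SP against 8.41, 10.4, 9.13 and 6.86 CPM in NSP libraries. SP library 4 lay inside the NSP range. The call of TRPM7 (1.76 ± 0.59, adjusted p = 0.0453) was lost in each leave-one-out fit except that without SP library 4, with adjusted p up to 0.133, and with upper-quartile scaling, thinning or no filter.

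TRPM6, the close relative of TRPM7 that carries magnesium across kidney and gut epithelium, was lower in SP. It had 0.22 CPM in SP library 1 and no read in the other SP libraries, against 0.81, 2.40, 0.60 and 0.68 CPM in NSP libraries (-4.31 ± 1.05, limma-voom adjusted p = 0.0113). TRPM3, a heat- and steroid-activated channel, had 0.60, 1.09, 0 and 0.77 CPM in SP against 6.12, 11.8, 7.78 and 11.0 CPM in NSP libraries. Its groups were well apart, with a log2 fold change of -4.69 ± 1.00 (adjusted p = 0.00576). TRPV5, a calcium-selective channel known from kidney tubules, had 10.5, 0.36, 0.86 and 4.04 CPM in SP against 33.8, 17.2, 6.19 and 21.6 CPM in NSP libraries. SP library 1 exceeded NSP library 3, and the call (-3.17 ± 0.98, adjusted p = 0.0327) was lost without SP library 2 or 3 or NSP library 1, 2 or 4 (adjusted p up to 0.0930).

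TRPV2, found in macrophages and other leukocytes, averaged 17.2 RPKM in SP, close to the 17.4 RPKM of TRPM1, and by median RPKM in SP it stood above TRPM1 (17.1 against 14.4). It had 113, 78.8, 127 and 89.8 CPM in SP against 83.7, 53.6, 22.9 and 61.9 CPM in NSP libraries, and the groups overlapped (0.99 ± 0.37, limma-voom adjusted p = 0.0638). The capsaicin receptor TRPV1 (0 to 1.41 CPM in SP, 0.80 to 1.21 CPM in NSP), the keratinocyte heat sensor TRPV3 (2.28 CPM in SP library 1 and no read in the other SP libraries, 0.27 to 1.99 CPM in NSP) and TRPC1 (4.04 to 10.6 CPM in SP, 3.42 to 7.02 CPM in NSP) did not pass, with adjusted p of 0.486, 0.0901 and 0.284. The irritant receptor TRPA1 had no read in any library. TRPV4, TRPM4 and TRPM8, other channels of interest at the ocular surface, were not analysed here.

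Among potassium channels, the voltage-gated pore genes that passed were higher in SP (3 of 8 tested). On the lower side limma-voom called 0 of them, with 0 at an unadjusted p under 0.05 and 0 by limma-trend, and the authors' deposited table called KCNA4, which was not tested here. KCNA3, which encodes the Kv1.3 channel of T lymphocytes, had 32.3, 18.2, 37.2 and 10.6 CPM in SP against 3.42, 0.09, 0.05 and 0.19 CPM in NSP libraries. Each SP library was above each NSP library, and NSP library 1 stood far above the other NSP libraries. The log2 fold change of KCNA3 was 6.28 ± 1.20 (limma-voom adjusted p = 0.00327). Summed T and NK cell markers were 594, 1402, 2233 and 918 CPM in SP libraries 1 to 4. Library 3 was the highest for both KCNA3 and these markers, and libraries 1, 2 and 4 differed in rank. The part of these markers was not tested. KCNH4, an ether-a-go-go family channel known from brain, had 4.73, 1.96, 9.14 and 9.12 CPM in SP against 0.05 to 0.19 CPM in NSP libraries (5.20 ± 1.09, adjusted p = 0.00537). KCNQ5, a subunit of neuronal M-type channels, had 8.15, 7.70, 9.03 and 2.30 CPM in SP against 0.85, 0.37, 0 and 2.08 CPM in NSP libraries. Its call (4.08 ± 1.15, adjusted p = 0.0216) was lost without NSP library 1 or 2 (adjusted p up to 0.0590). The silent subunit KCNS3, together with KCNH1, KCNH3 and KCND1, did not pass.

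Among the background potassium channels of the KCNK family, 2 of 5 tested genes were higher in SP and 0 were lower by limma-voom, also at an unadjusted p under 0.05 and by limma-trend, while the authors' deposited table called KCNK10 and KCNK2 lower. KCNK5 (TASK-2), which opens at alkaline pH and serves volume regulation, had 42.2, 64.2, 48.6 and 95.0 CPM in SP against 16.3, 18.2, 8.33 and 14.5 CPM in NSP libraries. KCNK6 (TWIK-2) had 40.9, 28.4, 27.2 and 53.6 CPM in SP against 9.13, 12.2, 6.34 and 3.87 CPM in NSP libraries. Neither gene's groups overlapped, and both calls held in every leave-one-out fit. The log2 fold changes were 2.09 ± 0.36 and 2.29 ± 0.41 (limma-voom adjusted p = 0.00198 and 0.00251). KCNK1 (TWIK-1), with 3.12 to 14.2 CPM in SP and 8.63 to 29.9 CPM in NSP libraries, did not pass (-1.03, adjusted p = 0.188), nor did KCNK13 or KCNK9.

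Of 3 calcium-activated and related channels tested, KCNMA1 and KCNU1 were lower in SP and KCNN3 did not pass. KCNMA1, the pore of the large-conductance BK channel, had 5.16, 0.88, 2.37 and 2.65 CPM in SP against 7.60, 5.63, 9.78 and 10.5 CPM in NSP libraries. The groups did not overlap, though SP library 1 came close to NSP library 2. The call (-1.81 ± 0.56, limma-voom adjusted p = 0.0314) was lost without SP library 2 or 3 or NSP library 3 or 4 (adjusted p up to 0.0900). KCNU1, a relative of the BK channel known from sperm, had reads in 1 SP library (0.38 CPM, library 3) against 3.69, 1.20, 3.39 and 2.80 CPM in NSP libraries (-5.52 ± 1.06, adjusted p = 0.00336). KCNN3, a small-conductance channel, had a log2 fold change in the other direction (0.91, adjusted p = 0.172).

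Auxiliary potassium subunits divided. KCNMB4, a regulatory subunit of the BK channel, had 1.25, 1.71, 2.21 and 4.60 CPM in SP against 0.14, 0.09, 0 and 0.82 CPM in NSP libraries, opposite in direction to the pore gene KCNMA1. Its call (3.92 ± 1.08, limma-voom adjusted p = 0.0197) was lost without NSP library 1, 2 or 3 (adjusted p up to 0.0602). KCNAB1, a cytoplasmic subunit of Kv1 channels, had 7.12, 6.41, 12.4 and 9.19 CPM in SP against 31.2, 18.4, 27.9 and 20.7 CPM in NSP libraries. All SP libraries were below all NSP libraries (-1.50 ± 0.35, adjusted p = 0.00873), opposite in direction to the pore gene KCNA3. KCNAB1 overlaps 2 other coding genes in RefSeq. KCNAB3 lay above NSP in each SP library without passing (1.86, adjusted p = 0.0591), and KCNMB3 below without passing (-1.09, adjusted p = 0.179). KCNE3, a small subunit that holds epithelial potassium channels open, had 2.42 to 13.4 CPM in SP and 2.30 to 9.72 CPM in NSP libraries (0.25, adjusted p = 0.795).

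Among inward rectifiers, KCNJ2 (Kir2.1), which stabilises the resting potential, had 6.25, 14.3, 5.49 and 11.5 CPM in SP against 3.96, 1.06, 1.45 and 5.56 CPM in NSP libraries. SP library 3 lay just under NSP library 4. Its call (1.82 ± 0.62, limma-voom adjusted p = 0.0465) did not hold without SP library 2 or 4 or NSP library 1, 2 or 3 (adjusted p up to 0.139), nor with median-ratio or upper-quartile scaling, quality weights or no filter. KCNJ9, a G protein-gated subunit, had no read in SP libraries 1 and 2 and 0.22 and 0.21 CPM in libraries 3 and 4, against 1.31, 1.75, 0.85 and 0.87 CPM in NSP libraries. It was lower in SP (-3.87 ± 1.01, adjusted p = 0.0154), a call lost without SP library 2 (adjusted p = 0.0569). KCNJ8 (Kir6.1), the pore of vascular ATP-sensitive channels, had 0.36 to 7.17 CPM in SP and 0.85 to 2.40 CPM in NSP libraries (0.71, adjusted p = 0.603).

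The 2 L-type calcium channel pores that were tested moved in opposite directions. CACNA1D (Cav1.3) had 4.78, 0.16, 0.16 and 3.20 CPM in SP against 31.3, 47.1, 31.8 and 36.4 CPM in NSP libraries. The NSP libraries were close to each other and every SP library was far below them (-5.49 ± 0.90, limma-voom adjusted p = 0.00150). CACNA1C (Cav1.2), the channel of heart and smooth muscle, had 4.67, 6.20, 2.69 and 27.6 CPM in SP against 1.75, 0, 0 and 0.29 CPM in NSP libraries. SP library 4 was far above the rest of its group, and the lowest SP library was still above NSP library 1. The log2 fold change of CACNA1C was 5.57 ± 1.59 (adjusted p = 0.0229), and its call was lost without NSP library 2, 3 or 4 (adjusted p up to 0.0702). CACNA1D overlaps CHDH and DCP1A, and CACNA1C overlaps DCP1B. The T-type pore CACNA1G did not pass (0.82, adjusted p = 0.519).

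Of the 7 tested auxiliary calcium channel subunits, 3 beta subunits, which bring the pore to the membrane, were lower in SP. On the higher side limma-voom and limma-trend called 0, as did the authors' deposited table, and 1 (CACNA2D1) had an unadjusted p under 0.05. CACNB3 had 10.5, 14.5, 4.62 and 7.87 CPM in SP against 22.5, 29.7, 21.8 and 22.9 CPM in NSP libraries. Its groups did not overlap and its call held in each leave-one-out fit (-1.47 ± 0.37, limma-voom adjusted p = 0.0129). CACNB2 had 1.09, 0.05, 0.86 and 2.92 CPM in SP against 4.32, 8.54, 3.84 and 5.80 CPM in NSP libraries (-3.05 ± 0.91, adjusted p = 0.0276). CACNB4 had 0.65, 0, 2.21 and 0 CPM in SP against 6.21, 2.08, 5.59 and 2.56 CPM in NSP libraries, with SP library 3 above NSP library 2 (-4.22 ± 1.29, adjusted p = 0.0303). The CACNB2 call was lost without SP library 2 or 3 or NSP library 2 or 4 (adjusted p up to 0.0621), and the CACNB4 call without SP library 2 or 4 or NSP library 1 or 3 (adjusted p up to 0.0939). CACNB1 (0.00, adjusted p = 0.999), CACNA2D1, CACNA2D2 and CACNA2D3 did not pass.

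Sodium channel pore genes were scarce in both groups. None of the 7 passed the filter on low counts, and together they summed to 1.499 to 4.95 CPM in SP and 0.39 to 1.25 CPM in NSP libraries. SCN4A, the pore of skeletal muscle, had 2, 0, 27 and 42 reads in SP against 1, 0, 3 and 0 in NSP libraries. SCN9A, the pore of pain-sensing neurons, had 24, 1, 34 and 0 reads in SP against 7, 27, 2 and 0 in NSP libraries. Most reads of SCN4A and SCN9A came from a few libraries. SCN3A had 10, 28, 16 and 0 reads in SP against 0, 0, 0 and 2 in NSP libraries. The authors' deposited table called SCN3A higher in SP. The auxiliary subunit SCN3B had 0.16, 4.65, 12.4 and 20.6 CPM in SP and 4.50 to 6.83 CPM in NSP libraries and did not pass (-0.61, limma-voom adjusted p = 0.714).

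In all, 56 members had reads but stayed below the filter, the most abundant at a group mean of 2.70 CPM. A further 13 had no read: CACNA1I, CACNG1, CACNG2, CACNG5, KCNC2, KCNJ16, KCNJ3, KCNK16, KCNK18, KCNMB1, KCNS2, TRPA1 and TRPC7. Of all untested members, 29 had under 15 reads, the 13 without a read among them. A count of 0 over a group allows up to 3 reads over its 4 libraries, and all such limits cover counting error only. Several untested genes had reads nearly confined to 1 group. The stretch- and lipid-gated channel KCNK10 (TREK-2) had no read in SP and 52, 62, 4 and 82 reads in NSP libraries, at least 55.7-fold lower in SP. Its relative KCNK2 (TREK-1) had 2 reads in SP, in library 4, and 5, 39, 15 and 18 reads in NSP libraries, a ratio of 32.2 (95% counting interval 8.61 to 270) of NSP over SP. Both TREK channels thus had their reads in NSP, whereas KCNK5 and KCNK6 were higher in SP.

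The Kv1 pore genes also divided. KCNA6 had 0, 21, 7 and 115 reads in SP and none in NSP, at least 57.1-fold higher in SP, and KCNA2 had 15, 0, 18 and 37 reads in SP and none in NSP, at least 27.9-fold higher. KCNA4, by contrast, had 2 reads in SP and 0, 1, 107 and 23 reads in NSP libraries (NSP over SP 54.7, interval 14.9 to 457), and KCNA1 had 1 read in SP and 27, 1, 0 and 17 in NSP libraries. Single libraries held most reads of KCNA6 and KCNA4. In RefSeq, KCNA3 and KCNA2 are neighbours with reads on the SP side for both, and KCNA1 and KCNA6 are neighbours with reads on opposite sides. Among auxiliary subunits, the Kv4 partner KCNIP3 had 0, 38, 7 and 50 reads in SP and 2 in NSP (56.9, interval 15.3 to 476), and KCNE4, which inhibits Kv1 channels, had 7, 2, 4 and 68 reads in SP and 3 in NSP (32.3, interval 10.7 to 160), both as SP over NSP. KCNIP1, another Kv4 partner, had no read in SP and 27, 5, 17 and 16 reads in NSP libraries, at least 18.1-fold lower in SP, and it overlaps KCNMB1.

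The authors' deposited table carries an EDGE test of the same counts, in which a positive fold change means higher in NSP. At its corrected p of 0.05, 17 members were higher in SP, 12 of them also called by limma-voom, and 18 were lower, 14 of them also called. The members that the authors' deposited table called and limma-voom did not were below the filter used here (KCNA2, KCNA6, KCNE4, KCNIP3 and SCN3A higher, KCNA4, KCNIP1, KCNK10 and KCNK2 lower in SP). KCNJ2, CACNB2, CACNB4 and KCNMA1 were called by limma-voom alone, with corrected p of 0.166, 0.0817, 0.145 and 0.0638 in the authors' deposited table.

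Ranked by mean RPKM, the leading members in SP were CLIC1 (1194), CLIC4 (322), AQP5 (168) and AQP3 (131), and in NSP AQP3 (2156), CLIC1 (1024), AQP5 (879) and CLIC4 (90.3). In SP, CLIC1 lay above the range of CLIC4 (832 to 1344 against 171 to 553 RPKM), while the ranges of CLIC4, AQP5 (66.8 to 364) and AQP3 (28.8 to 315) overlapped. In NSP, AQP3 (1048 to 2663), CLIC1 (796 to 1313) and AQP5 (383 to 1969) overlapped, and CLIC4 (64.8 to 103) lay apart. Next came KCNK5 (31.0), ANO10 (20.7), ANO6 (18.4), TRPM1 (17.4) and TRPV2 (17.2) in SP, and ANO10 (27.9) and KCNK1 (16.9) in NSP. The ranges of these genes overlapped too, so their order is not firm. In SP, KCNK5 spanned 20.9 to 47.1, TRPM1 4.34 to 36.3 and TRPV2 13.3 to 21.4 RPKM. In NSP, ANO10 spanned 25.4 to 32.0 and KCNK1 8.28 to 28.6 RPKM.

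All 131 genes together took 0.342, 0.306, 0.349 and 0.450% of exon reads in SP against 0.782, 0.651, 0.420 and 0.624% in NSP libraries. SP library 4 exceeded NSP library 3, and the difference of -0.258 percentage points gave p = 0.0571 in an exact two-sided permutation test over 70 splits, whose smallest possible p is 0.0286. Without AQP3, the member with the most reads, the means were 0.343% in SP and 0.310% in NSP, a difference of 0.0325 points in the opposite direction (exact p = 0.486).

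**Figure D3:**
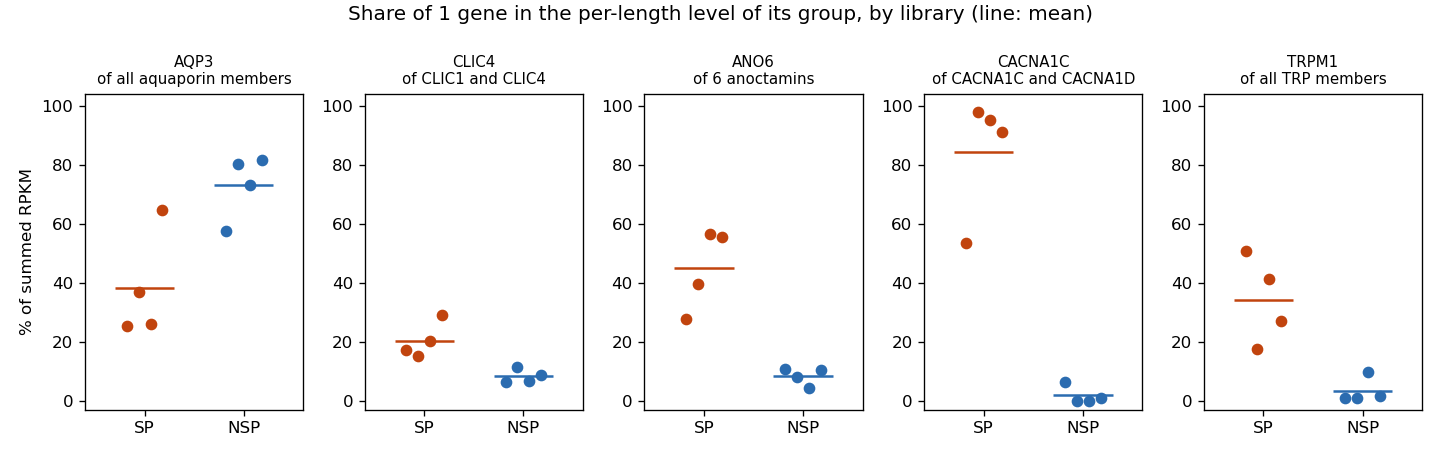
The share of 1 gene in the summed RPKM of its group (y axis, percent) in the 4 SP libraries (orange, left) and 4 NSP libraries (blue, right), with the mean as a line. The 5 shares were chosen after the values were seen and carry no test: CACNA1C averages 84.4% of the CACNA1C and CACNA1D sum in SP and 1.78% in NSP, and only the AQP3 panel has a share that is lower in SP. The aquaporin sum leaves out AQP1.

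Within groups of related genes, the share of single members differed between SP and NSP libraries. CLIC1 had the larger share of the CLIC1 and CLIC4 pair in both groups, and ANO10 the highest mean RPKM of the anoctamins in both. In SP the ranges of ANO10 (16.5 to 28.3 RPKM) and ANO6 (11.4 to 28.2 RPKM) overlapped. ANO6 led in SP libraries 3 and 4, at 56.6% and 55.6% of the anoctamin sum. The shares below were chosen after the values were seen and are a description. CACNA1C made up 84.4 ± 20.8% of the summed RPKM of the CACNA1C and CACNA1D pair in SP and 1.78 ± 2.97% in NSP (SD, n = 4 each), with SP library 1 at 53.5%. ANO6 made up 44.9 ± 13.8% of the anoctamin sum in SP and 8.45 ± 2.97% in NSP. TRPM1 made up 34.1 ± 14.8% of the TRP sum in SP and 3.24 ± 4.28% in NSP. CLIC4 made up 20.4 ± 6.22% of CLIC1 and CLIC4 in SP and 8.32 ± 2.35% in NSP. AQP3 made up 38.3 ± 18.4% of the sum of the aquaporin members in SP and 73.1 ± 11.0% in NSP, a sum without AQP1. For AQP3 the groups overlapped, since SP library 4 (64.7%) exceeded NSP library 1 (57.5%).

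**Figure D4:**
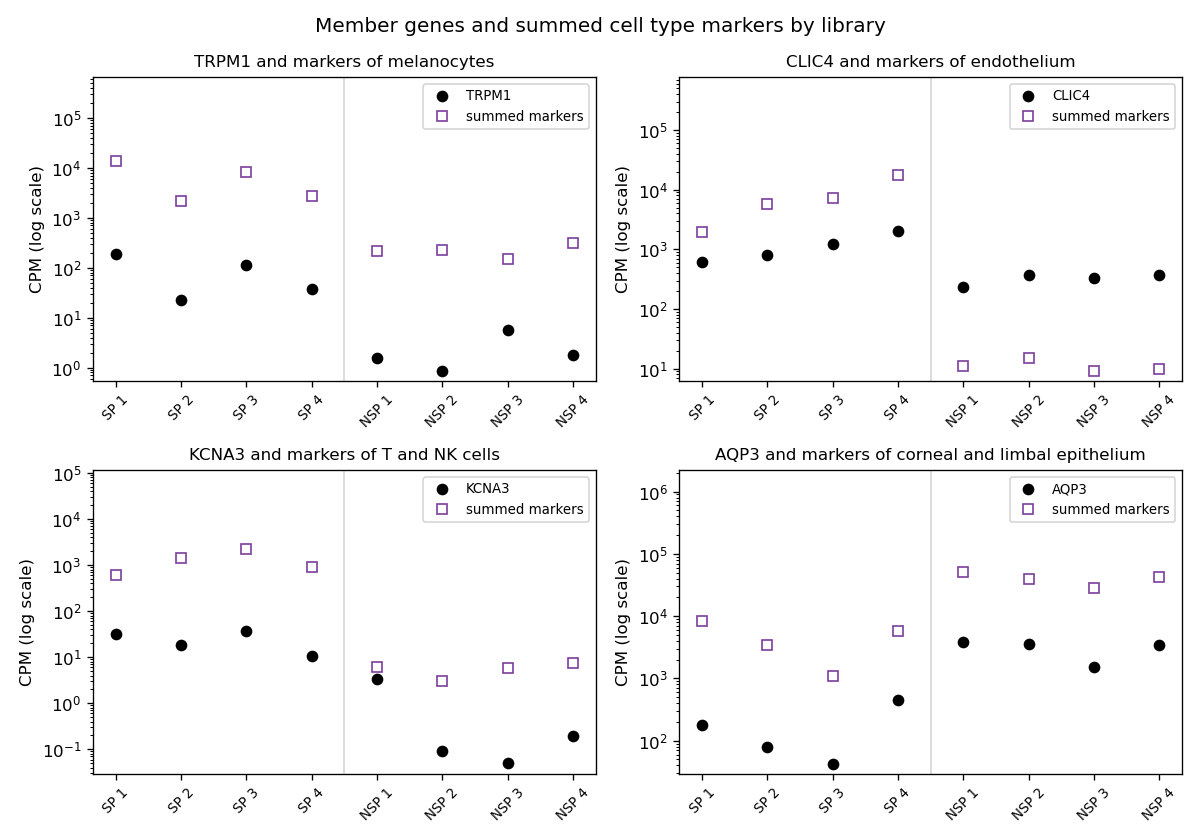
CPM (y axis, log scale) of TRPM1, CLIC4, KCNA3 and AQP3 (filled circles) and the summed markers of 1 cell type each (open squares) in the 4 SP libraries (left) and 4 NSP libraries (right). The SP libraries keep the same order for TRPM1 and melanocyte markers and for CLIC4 and endothelial markers, and not for KCNA3 and T and NK cell markers or AQP3 and epithelial markers. The summed Schwann cell and nerve markers, which are not drawn, ran in the TRPM1 order as well. The pairs were chosen after the values were seen.

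Beside these members, the marker sums varied between SP libraries as well. Endothelial markers summed to 1950, 5829, 7203 and 17570 CPM in SP libraries 1 to 4, the order in which CLIC4 (624 to 2014 CPM) and ANO6 (52.8 to 130 CPM) also ran, and library 4 was the highest for CACNA1C and KCNK5 too. In NSP libraries, endothelial markers summed to at most 15.4 CPM, while CLIC4 remained at 236 CPM or more and ANO6 at 10.03 CPM or more. Epithelial markers summed to 8345, 3424, 1087 and 5811 CPM in SP libraries 1 to 4, with AQP3 at 182, 80.4, 41.7 and 456 CPM and AQP5 at 460, 105, 84.4 and 198 CPM. AQP5 kept the order of the markers, and library 3 was the lowest for the markers and both aquaporins. The members set beside the markers here were picked after the values were seen. The part of these cell types in the differences was not tested.

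Other transport genes, outside the naming rule, came from a list of 90, of which 57 had a usable name and 46 were tested. Of these 46, 8 were higher and 10 lower in SP, while 17.7% of all genes tested were higher and 13% lower. Their median log2 fold change was 0.09, beside 0.12 for all genes. Among those higher in SP were the ATP-gated channels P2RX5 (6.60 ± 1.01, limma-voom adjusted p = 0.00110) and P2RX1 (4.69 ± 0.94, adjusted p = 0.00422), the acid-sensing channel ASIC1 (4.96 ± 0.91, adjusted p = 0.00269) and the lysosomal channel MCOLN2 (6.10 ± 1.13, adjusted p = 0.00287). Among those lower were CLCA2, a regulator of calcium-activated chloride conductance (-7.17 ± 1.12, adjusted p = 0.00121) and SGK1, a kinase that raises sodium channel activity (-1.43 ± 0.29, adjusted p = 0.00447). The count of higher genes was 5 without NSP library 2, and that of lower genes 6 without SP library 3 and 5 without NSP library 4.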

How the data were processed

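Per the labels, cells were sorted by Hoechst staining and RNA was read on an Ion Proton. The sources used here give no aligner, build, annotation or strand of counting. The authors deposited a fixed-width table of 20922 gene entries whose fields touch and are cut at 8 characters. It was read by character position, and the field per library with whole numbers was taken as exon read counts; the deposited group means were recomputed from it within 0.05. The other 143 per-library fields were not used. Headers name a group and not a sample; numbers 1 to 4 follow the columns. The deposited EDGE fold changes and p-values are the authors' own.

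Counts were scaled with TMM factors computed here (trims of 30% and 5%), giving CPM, and RPKM with the deposited exon length. The filter asked for 15 reads in all and, in 4 or more libraries, for a CPM of 0.508, equal to 10 reads at median depth. Genes that passed were tested with limma-voom (limma 3.58.1, R 4.3.3, count offset 0.5, group only, two-sided, Benjamini-Hochberg adjusted p under 0.05 over 10012 genes). The edgeR and DESeq2 packages were not used. Python 3.11.15 with pandas 2.3.3, NumPy 2.4.6, SciPy 1.17.1 and matplotlib 3.10.9 did the rest. The alternatives tried were upper-quartile and median-ratio factors, 2 other filters, limma-trend, quality weights, thinning to 15553295 reads and each library left out in turn. The procedure was also run on simulated counts, and the outcome is not given here. Libraries hold 15553295 to 23529101 reads.

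Members, gene lists and tests were chosen with earlier results of these data known. Named are up to 15 called members per direction by adjusted p, members fixed for their known roles, the 3 with the most reads per group and 4 related genes per direction; TRPV5, untested members and other members that did not pass were named after their values were seen. Some genes that these rules name are left out of the text and stayed in all tests and counts. RefSeq (assembly mOryCun1.1) matched 129 of 131 members and gave names, and its coordinates gave neighbours and overlaps only. By whole gene span, 19 members overlap another coding gene. No coordinates or sequences are printed. Single libraries that stand apart within their group were picked by Dixon's ratio, with a critical value of 0.829.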

Additional observations from a re-analysis of the deposited data

Results flagged for a closer look

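Dixon's ratio flags about 1 in 20 groups by chance if values are normally distributed, which CPM need not be. An excess over chance was not tested. In 79 groups of 4 libraries with values screened for members named above, 16 values stood far from the other 3 of their group. In SP libraries these were the lone AQP2 value (0.54 CPM), TRPV3 (2.28 CPM) and ANO3 (3.97 CPM) in library 1, each high, CLIC1 in library 1 (888 CPM), which was low, CACNA1C in library 4 (27.6 CPM), which was high, and TRPC1 in library 4 (4.04 CPM), which was low. In NSP libraries the high values were ANO2 (43.6 CPM), AQP5 (2487 CPM), CACNA1C (1.75 CPM) and KCNA3 (3.42 CPM) in library 1, CACNB3 (29.7 CPM) and TRPM6 (2.40 CPM) in library 2, CLCN2 (18.2 CPM) in library 3, and AQP2 (5.12 CPM) and KCNMB4 (0.82 CPM) in library 4. AQP3 in NSP library 3 (1519 CPM) was low. SP library 1 and NSP library 1 each gave 4 of the 16 values.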

How the results depend on the processing

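Across 7 other settings the members called higher numbered 11 to 15 (13 in the report) and those called lower 16 to 20 (17), and 9 to 14 and 14 to 22 with 1 library left out. Among 629 comparisons of 42 named members under 15 alternatives, 575 kept direction and side of the threshold, 42 lost the call, 6 gained one and 6 turned direction. The turns were in genes that did not pass: AQP4 (range -0.70 to 2.50 with 1 library left out), KCNE3 (-0.14 to 0.73), TRPV1 (-1.74 to 0.24) and KCNJ8 with quality weights (-0.05). The share of exon reads turned to 0.0325 points without AQP3. Of the other transport genes, 5 to 10 were higher and 5 to 11 lower with 1 library left out. The causes were not tested. No paired analysis was possible because the table's columns carry no replicate numbers; the sample titles do, but nothing ties a column to a title. With no filter beyond 1 read, which tests the scarce members too, 15 members were higher and 20 lower; many of the scarce ones have their reads in few libraries.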
